A study of Mus musculus with 30 samples.

Results

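The mitochondrial chromosome encodes 13 protein-coding genes, and 10 of them are described here: ND1, ND2, ND4, ND5 and ND6 of complex I, CYTB of complex III, COX1, COX2 and COX3 of complex IV, and ATP6 of ATP synthase. They were chosen by name, on levels already seen in these libraries, out of 36528 gene identifiers in the deposited counts. RNA-seq was run on 30 libraries of mouse brain cells from 6 groups of 5: PS2APP and non-Tg Cd11b+ myeloid cells, PS2APP and non-Tg Gfap+ astrocytes, and PS2APP and non-Tg NeuN+ neurons. All mice were 11.5 months old, and the non-Tg mice were non-transgenic littermates. PS2APP is a mouse model of amyloid deposition that carries human APP and PSEN2 transgenes with familial Alzheimer's disease mutations, APP under the Thy1 promoter and PSEN2 under the prion promoter. The labels give neither sex nor which libraries came from the same mouse or from pooled mice, so the p-values below cover only library-to-library spread, which may be technical.

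The respiratory chain moves electrons from NADH and succinate to oxygen through complexes I to IV and pumps protons, and ATP synthase uses the proton gradient to make ATP. Most of its subunits are encoded in the nucleus, but the mitochondrially encoded proteins make up the core of the membrane arm of complex I, cytochrome b of complex III, the catalytic core of complex IV and part of the proton channel of ATP synthase. The mitochondrial genome is transcribed from both strands into long RNAs, which are cut at the transfer RNAs into separate messages. ND6 is read from the light strand, and the other 9 genes from the heavy strand.

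COX2, COX3 and ATP6, which encode the copper-binding subunit of cytochrome c oxidase, another of its core subunits and the proton-channel subunit of ATP synthase, held almost no counts in any library. Over all 30 libraries COX2 had 123 counts, COX3 54 and ATP6 83, or 260 of the 5677086 counts on the 10 genes (0.00458%). COX1, which lies beside COX2 on the chromosome and encodes the catalytic subunit of the same enzyme, had 1176769. The highest count in any library was 12 for COX2, 6 for COX3 and 8 for ATP6, and COX2 was at 0 in 3 libraries, COX3 in 7 and ATP6 in 7. ND3, ND4L and ATP8, the 3 protein-coding genes of the chromosome not among the 10, were as low, with 78, 16 and 15 counts.

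Per the file headers, a count is a read that aligned uniquely to a gene model, and 5 of these 6 genes have near-identical copies in the nuclear genome. In the GENCODE M21 transcripts (GRCm38), COX2 matched the chromosome 1 pseudogene Gm28661 over 681 aligned bases with 0 mismatches, ATP6 matched Gm10925 over 678 with 0, and COX3 matched Gm28437 over 783 with 0. The first bases of the COX2 pair are shown because a read from bases that both genes share has more than 1 place to align. COX2 lies at chrM:7013-7696 (+ strand) and Gm28661 at chr1:24614885-24615565 (− strand), and their first 90 bases (chrM:7013-7102 and chr1:24615476-24615565) are the same letter for letter.
COX2: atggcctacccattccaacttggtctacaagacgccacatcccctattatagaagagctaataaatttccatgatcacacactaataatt
Gm28661: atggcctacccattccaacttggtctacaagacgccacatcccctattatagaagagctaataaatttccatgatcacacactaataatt
CYTB, which had the most counts of the 10 genes (1219187), has a more diverged chromosome 4 copy, Gm11410. In the first 90 bases of CYTB (chrM:14145-14234, + strand) and of Gm11410 (chr4:80003989-80004078, + strand), the capitals mark the 6 bases that differ.
CYTB: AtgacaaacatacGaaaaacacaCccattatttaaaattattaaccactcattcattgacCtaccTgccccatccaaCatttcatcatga
Gm11410: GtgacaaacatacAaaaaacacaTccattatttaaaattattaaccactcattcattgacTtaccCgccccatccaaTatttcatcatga
ND4 (chrM:10167-11544, + strand) is an intermediate case, because the chromosome 1 copy Gm28439 matches only its first 876 bases, with 0 mismatches. The stretch across the end of that copy (chrM:10983-11102, bases 817 to 936 of ND4) is shown with the bases beyond the copy in capitals.
ND4: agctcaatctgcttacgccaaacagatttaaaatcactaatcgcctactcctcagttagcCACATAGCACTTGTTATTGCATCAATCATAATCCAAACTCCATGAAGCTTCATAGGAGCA

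Across the 13 genes, the share of each gene's 50-base windows that also occurred in a transcript outside the mitochondrial chromosome ran from 0.0% to 100%. The share was 100% for COX2, 99.9% for COX3, 99.5% for ATP6, 98.8% for ND4L and 98.0% for ND3, and these genes had 0.18, 0.0689, 0.122, 0.0539 and 0.224 counts per base over the 30 libraries. ND4 shared 62.2% of its windows and COX1 51.1%, and they had 522 and 762 counts per base. ND2 and ND5 shared 8.19% and 7.61%, and ND1, ND6 and CYTB 0.0%. ATP8 shared 0.0% of its windows and had 0.0735 counts per base. The search covered annotated transcripts alone, so a copy outside them, such as in the chromosome 1 stretch between the copies of ATP6 and COX2, where ATP8 would lie, was not looked for. None of the 14 nuclear transcripts that shared a window has an identifier in the files, and the read length is not given in the sources used here, so the part of these copies in the low counts was not tested. COX2, COX3 and ATP6 did not pass the low-count filter and are not tested below, which leaves 7 of the 10 genes.

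**Figure D1:**
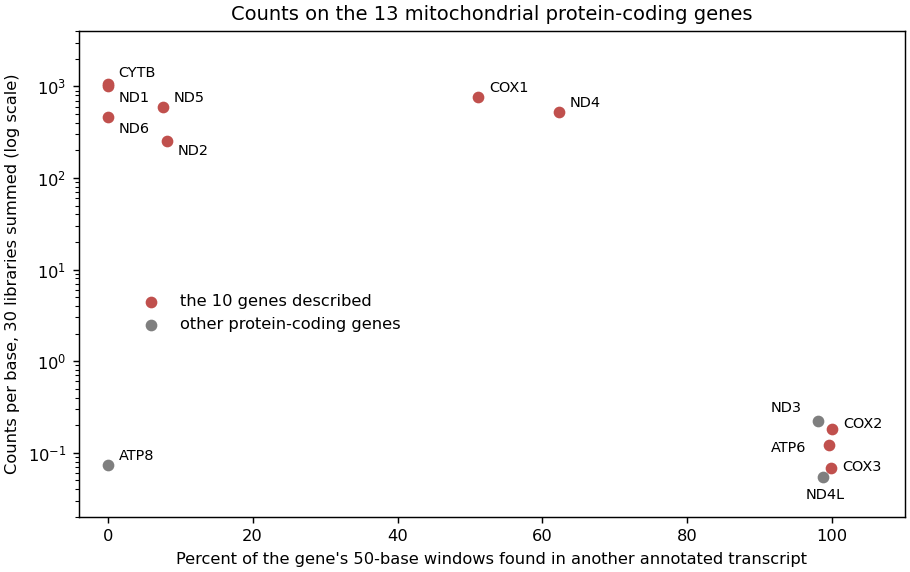
Counts per base (log scale, 30 libraries summed) of the 13 protein-coding genes of the mitochondrial chromosome against the percent of their 50-base windows found in a transcript outside it. The 5 genes at 98.0% or more lie at 0.224 counts per base or less, as does ATP8 at 0.0%, and the other 7 lie at 255 or more.

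Total counts per library were between 2015535 and 6749681, so that 3 counts, the limit that a count of 0 allows, corresponded to 0.44 to 1.49 CPM (counting error only). PS2APP myeloid libraries were the shallowest, with 2015535 to 2908222 counts, against 3578249 to 6143018 in non-Tg myeloid libraries. The genes behind the sorts were highest in their own population: Itgam, which encodes Cd11b, averaged 1044 and 1461 CPM in PS2APP and non-Tg myeloid cells, Gfap 1268 and 726 CPM in PS2APP and non-Tg astrocytes, and Rbfox3, which encodes NeuN, 174 and 121 CPM in PS2APP and non-Tg neurons. No marker gene of neurons, astrocytes, myeloid cells, oligodendrocytes or endothelial cells was at 0 throughout a group. Summed, the 10 astrocyte markers averaged 11268 CPM in PS2APP and 15244 CPM in non-Tg astrocytes. The 11 myeloid markers averaged 7767 CPM in PS2APP and 10009 CPM in non-Tg myeloid cells. The 13 neuron markers went the other way, with 3068 CPM in PS2APP and 2836 CPM in non-Tg neurons. Libraries of the genotypes overlapped for each of these sums. The part of these sums in the levels of the mitochondrial genes was not tested. On the first principal component of each population, the farthest libraries were PS2APP myeloid replicate 4, PS2APP astrocyte replicate 3 and PS2APP neuron replicate 5. That component held 26.8, 35.1 and 58.6% of the variance in myeloid cells, astrocytes and neurons.

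The share of a library's counts that fell on the 10 genes separated the populations more than the genotypes. It was 7.42, 13.8, 12.4, 13.3 and 9.46% in PS2APP myeloid cells, against 8.46, 4.81, 11.5, 5.93 and 8.70% in non-Tg myeloid cells. These groups overlapped, and they averaged 11.3 ± 2.7% and 7.88 ± 2.62% (SD, n = 5 each). In PS2APP astrocytes the share was 5.87, 6.01, 6.56, 4.78 and 5.38%, against 3.59, 2.77, 3.34, 3.42 and 2.06% in non-Tg astrocytes. Each PS2APP astrocyte library was above each non-Tg one, and the means were 5.72 ± 0.67% and 3.04 ± 0.63% (SD, n = 5 each). In PS2APP neurons it was 1.76, 1.13, 1.27, 1.30 and 1.16%, against 1.30, 0.620, 1.18, 1.44 and 1.06% in non-Tg neurons, and the means of 1.32 ± 0.25% and 1.12 ± 0.31% (SD, n = 5 each) lay within each other's spread. In bulk RNA from sorted cells, a change in the RNA of each cell and a change in which cells were sorted cannot be told apart.

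**Figure D2:**
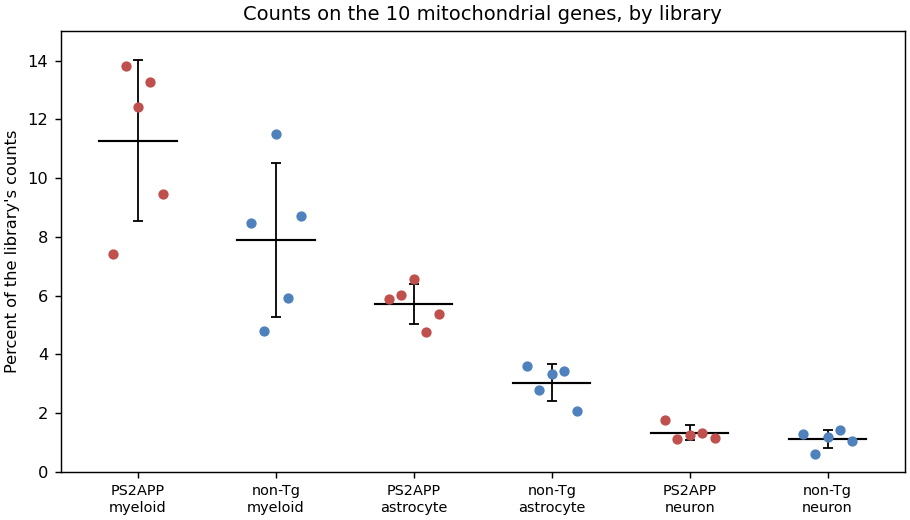
Percent of each library's counts on the 10 mitochondrial genes (points, 5 libraries per group), with the group mean (line) and SD (bar). PS2APP astrocytes lie between 4.78 and 6.56%, above all non-Tg astrocytes at 2.06 to 3.59%, while the genotypes overlap in myeloid cells and neurons.

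By mean TMM-scaled CPM, myeloid cells were above astrocytes and astrocytes above neurons within each genotype for each of the 7 genes. Myeloid and astrocyte libraries overlapped for each of the 7 genes in PS2APP mice, and for ND2, ND5, ND6 and COX1 in non-Tg mice. The fitted difference of ND6 between non-Tg myeloid cells and non-Tg astrocytes turned with RLE scaling and in DESeq2. Mean CPM of the 10 genes together, scaled by TMM over all 30 libraries, was 118735 in PS2APP myeloid cells, 74513 in non-Tg myeloid cells, 70023.5 in PS2APP astrocytes, 33504 in non-Tg astrocytes, 12322 in PS2APP neurons and 9312 in non-Tg neurons. Libraries of neighbouring groups in this order overlapped, apart from PS2APP and non-Tg astrocytes, and non-Tg astrocytes and PS2APP neurons. For ND2, ND4, ND5 and ND6 the mean of PS2APP astrocytes was above that of non-Tg myeloid cells, with overlapping libraries, and for ND1, CYTB and COX1 it was below, again with overlap. The genes were then compared with each other by mean CPM per kb, taken from total counts. By this measure CYTB, ND1 and COX1 were the 3 highest of the 7 genes and ND2 the lowest in each of the 6 groups. In non-Tg astrocytes COX1 was only just above ND6, and with TMM scaling it was below. There ND6 was above COX1 per kb in replicates 1, 3 and 5. Which of CYTB and ND1 came first, and the order of ND4, ND5 and ND6, varied between groups. Counted instead per 50-base window found in no other transcript, over 30 libraries, the highest were COX1 and ND4, with 1610 and 1434 counts, ahead of CYTB and ND1, with 1113 and 1069.

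**Figure D3:**
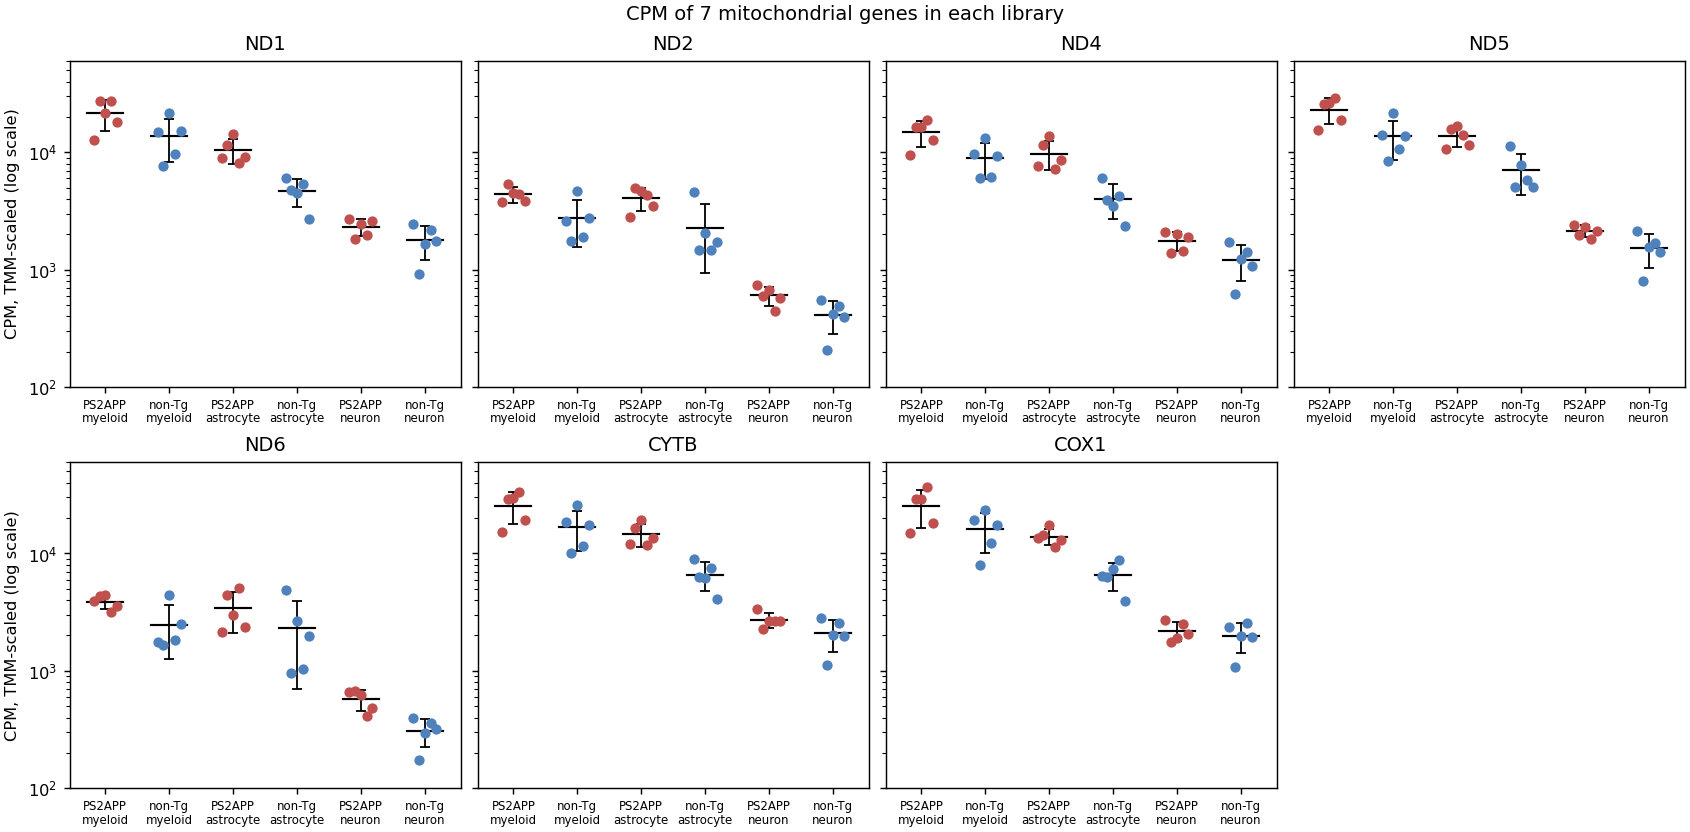
CPM (log scale, TMM-scaled over 30 libraries) of 7 mitochondrial genes in each library (points), with the group mean (line) and SD (bar). COX1 lies between 11396 and 36679 CPM in PS2APP glial libraries and between 3933 and 23662 CPM in non-Tg glial libraries. In neurons of either genotype it lies between 1088 and 2717 CPM.

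In astrocytes, all 7 tested genes had a higher mean in PS2APP mice. ND4, a proton-pumping subunit of complex I, had 7705, 11529, 13719, 7289 and 8656 CPM in PS2APP astrocytes, against 6005, 3891, 3517, 4272 and 2355 CPM in non-Tg astrocytes. All 5 PS2APP libraries were above all 5 non-Tg libraries, a log2 fold change of 1.32 ± 0.22 (SE). ND1, a complex I subunit at the quinone-binding site, had 8918, 11532, 14324, 8089 and 9219.6 CPM in PS2APP astrocytes, against 6097, 4743, 4527, 5392 and 2722 CPM in non-Tg astrocytes. It did not overlap between genotypes either, with a log2 fold change of 1.18 ± 0.21. CYTB, which carries the quinone sites of complex III, had 12060.0, 16364, 19465, 11766 and 13675 CPM in PS2APP astrocytes, against 8983, 6311, 6211, 7447 and 4068 CPM in non-Tg astrocytes (log2 fold change 1.18 ± 0.20). COX1, the haem- and copper-bearing core of complex IV, had 13475, 14363, 17406, 11396 and 13012 CPM in PS2APP astrocytes, against 6435, 6333, 7395, 8832 and 3933 CPM in non-Tg astrocytes (log2 fold change 1.11 ± 0.19). For CYTB and COX1, too, the lowest PS2APP library was above the highest non-Tg library.

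The other 3 genes overlapped between the genotypes in astrocytes. ND5, another proton-pumping subunit of complex I, had 10612, 15825, 16693, 14121 and 11534 CPM in PS2APP astrocytes, against 11392, 5079.6, 7811, 5813 and 5059 CPM in non-Tg astrocytes (log2 fold change 0.99 ± 0.22). ND2, also a pumping subunit, had 2832, 4966, 4676, 4369 and 3495 CPM in PS2APP astrocytes, against 4616, 1469, 2052, 1469.7 and 1732 CPM in non-Tg astrocytes (log2 fold change 0.87 ± 0.27). ND6, a small membrane subunit of complex I, had 2124, 4418, 3018, 5097 and 2363 CPM in PS2APP astrocytes, against 4896, 951, 2683, 1037 and 1986 CPM in non-Tg astrocytes (log2 fold change 0.58 ± 0.35). The non-Tg library with 11392, 4616 and 4896 CPM for these genes was replicate 1 each time.

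By edgeR's quasi-likelihood test with Benjamini-Hochberg adjustment over all genes, 4 of the 7 tested genes (ND1, ND4, CYTB and COX1) were called higher in PS2APP astrocytes, where 0.185% of all 14043 genes tested were called higher. The same 4 did not overlap between genotypes, beside 0.99% of all genes tested that did not overlap and were higher and 1.99% that were lower. The genes were put forward with these levels known, so the counts are a description. Calls were 0 without PS2APP astrocyte replicate 2, 0 without non-Tg astrocyte replicate 2 and 6 without non-Tg astrocyte replicate 1. They were also 0 with the summed markers of other cell types as a covariate. That sum was 2980 ± 946 CPM in PS2APP astrocytes and 1936 ± 345 CPM in non-Tg astrocytes (SD, n = 5 each; 38 genes, 2111 to 4571 and 1535 to 2357 CPM). With that sum in the fit, the log2 fold changes of the 7 genes were between 0.14 (ND6) and 0.82 (ND4).

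In myeloid cells the genotypes overlapped for each of the 7 genes, although each mean was higher in PS2APP mice. ND5 had 15411, 25660.2, 26605, 29081 and 18793 CPM in PS2APP myeloid cells, against 14069.9, 8401, 21607, 10602 and 13728 CPM in non-Tg myeloid cells. Replicate 3 of the non-Tg libraries was above PS2APP replicates 1 and 5, and the log2 fold change was 0.85 ± 0.22 (SE). ND4 had 9418, 16521, 16403, 18978 and 12846 CPM in PS2APP myeloid cells, against 9765, 6026, 13376, 6116 and 9326 CPM in non-Tg myeloid cells (log2 fold change 0.82 ± 0.22). ND2 had 3784, 5391, 4533, 4410.1 and 3822 CPM in PS2APP myeloid cells, against 2615, 1751, 4691, 1899 and 2770.0 CPM in non-Tg myeloid cells (log2 fold change 0.76 ± 0.21). The non-Tg replicate 3 was the highest of its group for all 3 of these genes. CYTB had 15321, 29316, 29482, 33659 and 19270.1 CPM in PS2APP myeloid cells, against 18637, 10096, 25848, 11639 and 17568 CPM in non-Tg myeloid cells (log2 fold change 0.69 ± 0.24). COX1 had 14841, 28868, 29147, 36679 and 18017 CPM in PS2APP myeloid cells, against 19328, 8008, 23662, 12349 and 17471 CPM in non-Tg myeloid cells (log2 fold change 0.75 ± 0.26). For both, PS2APP replicate 1 was below non-Tg replicates 1, 3 and 5. ND1 and ND6 had log2 fold changes of 0.74 ± 0.25 and 0.75 ± 0.21.

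ND2, ND4 and ND5, 3 of the 7 tested genes, were called higher in PS2APP myeloid cells, where 1.86% of all 12274 genes tested were called higher and 1.5% lower. None of the 7 was free of overlap between the genotypes, beside 1.61% of all genes tested that did not overlap and were higher and 3.54% that were lower. These counts, too, describe genes chosen with the levels known. Calls ranged between 0 and 5 when 1 library was left out. They were 0 without PS2APP replicate 2, 3 or 4 or non-Tg replicate 2, 4 or 5, 1 without PS2APP replicate 5 and 5 without non-Tg replicate 3. They were also 0 in a robust fit, in 1 fit of all 30 libraries and with the markers of other cell types as a covariate. With that covariate the log2 fold changes were between 0.48 (ND1) and 0.73 (ND5). The marker sum was 2414 ± 411 CPM in PS2APP myeloid cells and 1901 ± 334 CPM in non-Tg myeloid cells (SD, n = 5 each; 37 genes, 2072 to 3123 and 1556 to 2445 CPM).

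In neurons no gene of the 7 was called, where 0.0% of all 16064 genes tested were called higher and 0.00623% (1 gene) lower. At an unadjusted p under 0.05, 3671 genes (22.9%) passed in edgeR, 4 of them among the 7, and DESeq2 called 143 genes (0.89%), 1 of them (ND6) among the 7. COX1 had 2717, 1759, 1921, 2528 and 2075 CPM in PS2APP neurons, against 2353, 1088, 1961, 2538 and 1946 CPM in non-Tg neurons, a log2 fold change of 0.14 ± 0.21 (SE). CYTB, ND1, ND5, ND2 and ND4 had log2 fold changes of 0.36 ± 0.21, 0.36 ± 0.22, 0.48 ± 0.21, 0.53 ± 0.22 and 0.53 ± 0.23, with overlapping libraries. ND6 had 664, 676, 626, 413 and 487 CPM in PS2APP neurons, against 393, 175, 297, 356 and 317 CPM in non-Tg neurons, a log2 fold change of 0.88 ± 0.21. All 5 PS2APP libraries were above all 5 non-Tg libraries for ND6 alone among the 7, beside 1.36% of all genes tested that did not overlap and were higher and 1.76% that were lower. The marker sum of other cell types was 726 ± 105 CPM in PS2APP neurons and 748 ± 108 CPM in non-Tg neurons (SD, n = 5 each; 35 genes).

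**Figure D4:**
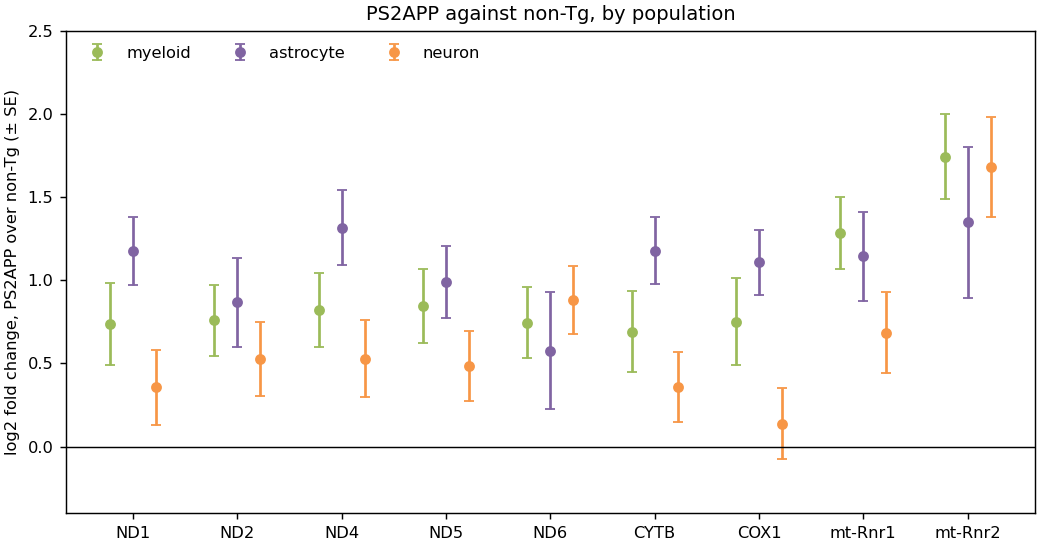
Log2 fold change of PS2APP over non-Tg (points, ± SE, n = 5 libraries per group) for 7 mitochondrial mRNA genes and both mitochondrial rRNA genes in 3 populations. The 7 genes lie between 0.58 and 1.32 in astrocytes, between 0.69 and 0.85 in myeloid cells and between 0.14 and 0.88 in neurons, and all values are above 0.

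As medians, the log2 fold changes of the 7 genes were 1.11 in astrocytes, 0.75 in myeloid cells and 0.48 in neurons, beside medians of 0.01, 0.00 and −0.02 over all genes tested. These fold changes are TMM-scaled, and the mean shares of total counts given above differed by less between genotypes in each population. Whether the genotype difference itself varied between populations was compared in 1 edgeR fit of all 30 libraries. In edgeR and in DESeq2 no gene of the 7 was called in any of the 3 pairs, and at an unadjusted p under 0.05 there were 4 for astrocytes minus neurons, 0 for myeloid cells minus astrocytes and 0 for myeloid cells minus neurons, where 4.97%, 13% and 9.65% of all genes were under it. Over all genes, 0.293% of 18101 were called higher and 0.464% lower for myeloid cells minus astrocytes, 0.0939% and 0.011% for myeloid cells minus neurons, and 0.0331% and 0.0% for astrocytes minus neurons. The widest differences were between astrocytes and neurons, where COX1 differed by 0.94 ± 0.35 and CYTB and ND1 by 0.79 ± 0.34 and 0.79 ± 0.35 on the log2 scale (SE). ND6 went the other way in that pair, with −0.33 ± 0.44. Levels were known when the genes were put forward, so these counts and differences are a description. The 7 genes also moved together within groups (below), so they are not independent of each other. For myeloid cells minus astrocytes the median over all genes was −0.11 with TMM and 0.02 with RLE scaling, and the median of the 7 genes was −0.43 with TMM.

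Without the transgenes, the 3 populations differed widely. In non-Tg mice, 7 of the 7 genes were called higher in myeloid cells than in neurons, where 34.1% of all 18101 genes were called higher and 33.7% lower, and their log2 differences ran between 2.86 (ND2) and 3.31 (ND5). Likewise 7 of 7 were called higher in astrocytes than in neurons, beside 26.9% of all genes higher and 24.8% lower, with log2 differences from 1.45 (ND1) to 2.97 (ND6). Between myeloid cells and astrocytes, 5 of 7 were called higher in myeloid cells, beside 26.8% of all genes higher and 30.7% lower. ND1 had the widest difference there, 1.63 ± 0.25 on the log2 scale (SE), whereas ND2 and ND6 differed by 0.35 ± 0.27 and 0.15 ± 0.31 and were not called. The sign for ND6 turned with RLE scaling and in DESeq2, to −0.015 in each. With RLE in place of TMM the median of all genes was −0.28 in place of −0.11 for myeloid cells minus astrocytes and −0.20 in place of 0.03 for myeloid cells minus neurons. Levels were part of the choice of genes, so these comparisons describe them.

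The genes moved together to different degrees within a group. With group means taken off, Pearson's r of log2 CPM over the 30 libraries lay between 0.21 and 0.97 for the 21 pairs. ND1, ND4 and CYTB formed the closest set, with r of 0.97 for ND1 with CYTB, 0.97 for ND1 with ND4 and 0.97 for ND4 with CYTB. ND6 was least like COX1, with an r of 0.21, and most like ND2, with 0.88. Without ND2 and ND6 the lowest r of a pair was 0.75. These are descriptions over libraries that share depth and scaling.

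ND6, the light-strand gene, was also set against the other 9 genes within each library. The ratio is made of the counts on which the genes were chosen, so it is a description with no test. ND5 and ND6 overlap end to end on opposite strands, and whether the counting used strand is not stated in the sources used here, so reads from ND6 and from heavy-strand RNA across it cannot be told apart. The last 60 bases of each gene are shown, with the 14 bases of the overlap in capitals (ND5 at chrM:13506-13565, + strand, and ND6 at chrM:13552-13611, − strand).
ND5: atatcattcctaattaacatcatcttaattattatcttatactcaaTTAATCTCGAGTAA
ND6: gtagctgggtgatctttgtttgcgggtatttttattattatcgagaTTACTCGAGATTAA

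In neurons, the log2 ratio of ND6 counts to the counts of the other 9 genes was −4.40, −3.86, −4.27, −4.72 and −4.62 in PS2APP libraries, against −4.93, −4.77, −4.90, −4.93 and −4.75 in non-Tg libraries. All 5 PS2APP neuron libraries were above all 5 non-Tg ones. The means of −4.37 ± 0.34 and −4.86 ± 0.09 (SD, n = 5 each) differed by 0.48, a 1.40-fold higher ratio in PS2APP neurons. The difference lay between 0.36 and 0.57 when 1 library was left out.

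In glia the genotypes overlapped in this ratio. It averaged −4.85 ± 0.49 in PS2APP myeloid cells and −4.91 ± 0.35 in non-Tg myeloid cells, a difference of 0.06. In astrocytes it averaged −4.35 ± 0.57 in PS2APP mice and −3.98 ± 0.89 in non-Tg mice, a difference of −0.37 (SD, n = 5 each). The non-Tg astrocyte libraries lay in separate places, with −3.15, −3.55 and −3.32 in replicates 1, 3 and 5 and −4.87 and −5.00 in replicates 2 and 4.

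**Figure D5:**
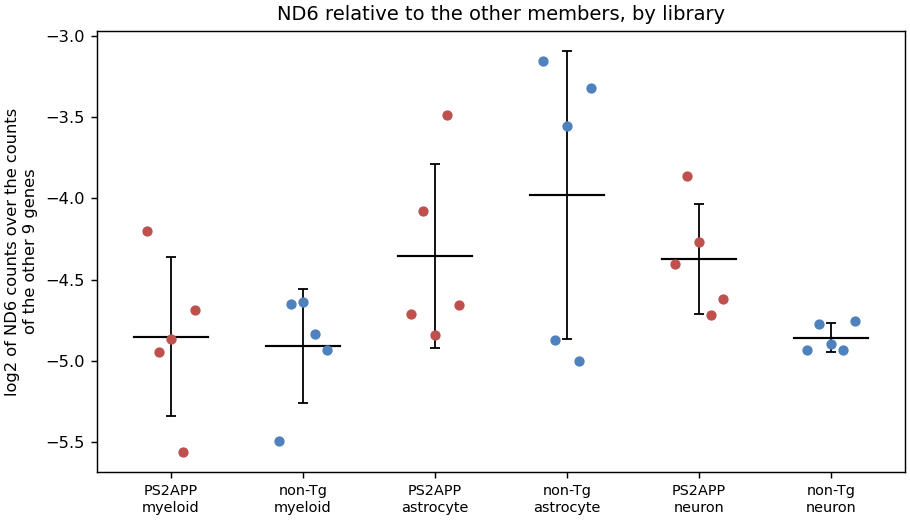
Log2 ratio of ND6 counts to the counts of the other 9 genes in each library (points), with the group mean (line) and SD (bar). PS2APP neurons lie between −4.72 and −3.86, above all non-Tg neurons at −4.93 to −4.75, and non-Tg astrocytes spread from −5.00 to −3.15.

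ND5 and CYTB, which lie far from the start of the heavy-strand transcript, were set against ND1 and ND2, which lie near it. The log2 ratio averaged 0.895 ± 0.14 in PS2APP and 0.895 ± 0.07 in non-Tg myeloid cells, 0.98 ± 0.05 in PS2APP and 0.98 ± 0.09 in non-Tg astrocytes, and 0.74 ± 0.11 in PS2APP and 0.72 ± 0.07 in non-Tg neurons (SD, n = 5 each). The genotypes differed by 0.00, 0.00 and 0.02, less than the spread between libraries. Between populations, the ratio was higher by 0.18 in non-Tg myeloid cells and by 0.26 in non-Tg astrocytes than in non-Tg neurons, without overlap. Non-Tg myeloid cells and astrocytes differed by −0.08, with overlap. This ratio, too, is a description.

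The 2 ribosomal RNA genes of the mitochondrial chromosome, which are not among the 10, rose in PS2APP myeloid cells. mt-Rnr2, the large-subunit rRNA, had 16486, 23095, 14609, 22291 and 17874 CPM in PS2APP myeloid cells, against 8633, 4570.0, 8561, 2590.2 and 5394 CPM in non-Tg myeloid cells. All PS2APP libraries were above all non-Tg libraries, and mt-Rnr2 rose by 1.75 ± 0.25 on the log2 scale (SE, edgeR with Benjamini-Hochberg adjustment, adjusted p = 0.000334). mt-Rnr1, the small-subunit rRNA, had 3309, 4495, 2415, 4249.8 and 3205 CPM in PS2APP myeloid cells, against 1710.4, 968, 2196, 1079 and 1747 CPM in non-Tg myeloid cells. Its libraries did not overlap either and it rose by 1.28 ± 0.22 (edgeR adjusted p = 0.00183), but the adjusted p was 0.0545 with the other-cell covariate.

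mt-Rnr2 also stood at 1.68 ± 0.30 in neurons (edgeR adjusted p = 0.128) and 1.35 ± 0.46 in astrocytes (adjusted p = 0.167), and mt-Rnr1 at 0.69 ± 0.24 (adjusted p = 0.186) and 1.15 ± 0.27 (adjusted p = 0.0798), so neither passed there. The neuron libraries did not overlap for mt-Rnr2, with 1276, 1090.4, 1527, 652 and 1945 CPM in PS2APP neurons, against 625, 212, 320.4, 447 and 397 CPM in non-Tg neurons. Non-Tg astrocyte replicate 1 had 11131 CPM of mt-Rnr2, against 1709 to 2473 CPM in the other 4 libraries of its group, and without it mt-Rnr2 and mt-Rnr1 passed in astrocytes (log2 fold changes of 2.19 and 1.48, adjusted p = 0.00659 and 0.00632). With the other-cell covariate their log2 fold changes in astrocytes were 0.18 and 0.46. Per 100 counts on the 10 genes, mt-Rnr2 had 16.6 ± 4.1 in PS2APP and 8.04 ± 2.5 in non-Tg myeloid cells, 13.3 ± 5.7 in PS2APP and 10.7 ± 7.1 in non-Tg astrocytes, and 10.5 ± 3.7 in PS2APP and 4.26 ± 0.57 in non-Tg neurons (SD, n = 5 each). ID19791, an identifier with no symbol in the reference table, took 5.94 ± 2.12% of counts in PS2APP myeloid libraries and 2.16 ± 0.63% in non-Tg myeloid libraries. It took 1.31 ± 0.85% in PS2APP and 0.499 ± 0.194% in non-Tg astrocytes, and 0.143 ± 0.117% in PS2APP and 0.0559 ± 0.0183% in non-Tg neurons. Its mean was thus higher in PS2APP libraries of each population, as were the mean CPM of both rRNA genes. Whether these differences have a common source was not tested.

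The partners of the mitochondrially encoded subunits are 80 nuclear-encoded subunits of complexes I to IV and ATP synthase. None of those tested was called higher or lower by edgeR in any population. Of 63 tested in myeloid cells 43 had a positive log2 fold change, of 62 in astrocytes 39, and of 67 in neurons 14. Their median log2 fold changes were 0.32, 0.14 and −0.27, beside 0.00, 0.01 and −0.02 over all genes. In edgeR, 8, 4 and 18 of them (12.7, 6.45 and 26.9%) had an unadjusted p under 0.05, beside 19.3, 17.2 and 22.9% of all genes, and DESeq2 called 3, 0 and 1 (4.76, 0.0 and 1.49%), beside 7.23, 2.33 and 0.89% of all genes. Their summed level was 1319 ± 98 CPM in PS2APP and 1182 ± 95 CPM in non-Tg myeloid cells, 858 ± 152 CPM in PS2APP and 778 ± 46 CPM in non-Tg astrocytes, and 735 ± 46 CPM in PS2APP and 821 ± 43 CPM in non-Tg neurons (SD, n = 5 each). For each CPM on these nuclear genes, the 10 mitochondrial genes had 90.5 ± 25.9 CPM in PS2APP and 63.8 ± 26.6 CPM in non-Tg myeloid cells, 82.1 ± 12 CPM in PS2APP and 43.1 ± 13.2 CPM in non-Tg astrocytes, and 16.8 ± 1.7 CPM in PS2APP and 11.5 ± 3.9 CPM in non-Tg neurons.

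By complex, 13 of 27 tested complex I subunits were positive in myeloid cells, 15 of 27 in astrocytes and 7 of 30 in neurons. For complex IV, 10 of 11 were positive in myeloid cells (median 0.58), 8 of 10 in astrocytes (median 0.23) and 1 of 11 in neurons (median −0.33). For ATP synthase, 12 of 13 were positive in myeloid cells (median 0.53), 8 of 13 in astrocytes (median 0.16) and 3 of 14 in neurons (median −0.25). The complex I subunit Ndufv3 had 57.4 ± 26.5 CPM in PS2APP and 32.9 ± 5.2 CPM in non-Tg myeloid cells (edgeR adjusted p = 0.0692), and the ATP synthase subunit Atp5k 15.3 ± 5.1 and 6.72 ± 2.45 CPM (adjusted p = 0.0829). In neurons, the complex I subunit Ndufv2 had 13.8 ± 3.6 CPM in PS2APP and 21.9 ± 1.8 CPM in non-Tg mice, and the ATP synthase subunit Atp5g3 5.30 ± 2.00 and 11.8 ± 4.3 CPM (edgeR adjusted p = 0.186 each).

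Smallest p-values of the other complexes were those of Sdhb (log2 fold change 0.66), Uqcrc1 (0.59) and Cox6a2 (1.43) in myeloid cells, with edgeR adjusted p of 0.348, 0.208 and 0.212. In astrocytes they were those of Ndufv3 (0.65), Sdhc (−0.89), Uqcr10 (0.999), Cox4i1 (0.68) and Atp5b (0.62), with adjusted p from 0.23 to 0.372. In neurons they were those of Sdha (−0.37), Uqcr10 (−0.58) and Cox6c (−0.67), with adjusted p of 0.19, 0.186 and 0.186.

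Of 31 assembly factors, none of 29 tested in myeloid cells, 27 in astrocytes and 29 in neurons passed. The gene of smallest p was Cox11, a copper chaperone of complex IV, in myeloid cells (log2 fold change −1.69, edgeR adjusted p = 0.11). In astrocytes it was Ttc19, a complex III factor (−0.66, adjusted p = 0.183), and in neurons Tmem70, an ATP synthase factor (−1.35, adjusted p = 0.186). Of 39 matched genes for the transcription, processing and stability of mitochondrial RNA, none of 36, 37 and 38 tested passed in myeloid cells, astrocytes and neurons. Over all nuclear lists, 20, 10 and 34 genes had an unadjusted p under 0.05 in edgeR. These were 14.1, 7.14 and 22.8% of those tested, beside 19.3, 17.2 and 22.9% of all genes. DESeq2 called 6, 0 and 1 of the listed genes (4.23, 0.0 and 0.671%), beside 7.23, 2.33 and 0.89% of all genes. Tbrg4, a FASTK-family protein of mitochondrial RNA, had 78.6 ± 12.5 CPM in PS2APP and 51.5 ± 10.0 CPM in non-Tg myeloid cells (log2 fold change 0.69 ± 0.20, edgeR adjusted p = 0.0536), and 43.6 ± 9.1 CPM in PS2APP and 29.6 ± 7.2 CPM in non-Tg astrocytes (0.58 ± 0.23, adjusted p = 0.21). Polrmt, the mitochondrial RNA polymerase, had 47.0 ± 16.7 CPM in PS2APP and 27.5 ± 7.6 CPM in non-Tg neurons (0.76 ± 0.24, adjusted p = 0.186).

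Of 20 genes of mitochondrial stress responses, 1 of 14 tested passed in myeloid cells and none of 14 in astrocytes or 15 in neurons. Yme1l1, a protease of the inner membrane that helps process OPA1, fell in PS2APP myeloid cells, with 20.4 ± 2.6 CPM, against 41.2 ± 11 CPM in non-Tg myeloid cells (log2 fold change −0.92 ± 0.25, edgeR adjusted p = 0.0467). It was at the threshold: the adjusted p was 0.0505 with RLE scaling and 0.136 with the other-cell covariate, and it passed in 1 of 10 fits with 1 library left out. The transcription factor gene Ddit3 had 33.7 ± 11.5 CPM in PS2APP and 23.7 ± 2.2 CPM in non-Tg astrocytes (adjusted p = 0.28), and 17.7 ± 3.7 CPM in PS2APP and 13.4 ± 1.4 CPM in non-Tg neurons (adjusted p = 0.209).

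Among 9038 nuclear genes with a mean log2 CPM of at least 3, the 5 whose log2 CPM was most like the summed level of the 10 genes over all 30 libraries were Tle3, Stx4a, Chd7, Ppp1r9b and Lars2, with Pearson's r between 0.949 and 0.956 (Spearman's rho 0.918 to 0.940). Lars2 encodes the mitochondrial leucyl-tRNA synthetase. This likeness is mostly that of the populations, since the libraries fall into 3 of them. With group means taken off, the 5 closest were the oligodendrocyte-lineage genes Bcas1 (r = 0.734) and Mobp (r = 0.722), then Gtf3c3 (0.694), Magi1 (0.683) and Kif5b (0.674). The 8 oligodendrocyte markers summed to 1528 ± 411 CPM in PS2APP and 994 ± 209 CPM in non-Tg astrocytes, 1247 ± 262 CPM in PS2APP and 820 ± 163 CPM in non-Tg myeloid cells, and 263 ± 37 CPM in PS2APP and 203 ± 42 CPM in non-Tg neurons (SD, n = 5 each). These 8 markers are among those summed in the other-cell covariate above, but their own part in the levels of the mitochondrial genes was not tested.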

How the data were processed

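RNA-seq of 30 sorted libraries was analysed. The deposited count of a gene is, per the file headers, its uniquely aligning reads. The second deposited column holds, per those headers, RPKM scaled by size factors. The submitters' processing notes name GSNAP and GRCm38. Their versions, the gene annotation, the read length and strandedness are not known from those notes. Tests used the counts. RPKM served only to check gene lengths against RefSeq.

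For each population edgeR 4.0.16 (R 4.3.3) was run with filterByExpr and TMM scaling, and its quasi-likelihood p-values were adjusted after Benjamini-Hochberg (threshold 0.05). Differences between populations came from 1 fit of all libraries. Log2 ratios among the 10 genes, with 0.5 added to each sum, are given without their planned exact permutation test, since the genes were chosen on the same counts. On simulated counts edgeR called 35, 35 and 63 of 100 genes changed 2-fold in myeloid cells, astrocytes and neurons. Sequences came from GENCODE M21 transcripts. The 10 genes, the gene lists and the named genes (from each list those called, otherwise the gene of smallest p, the rest of the mitochondrial chromosome and the 5 most similar genes) were chosen with earlier results of these data known. Replicate numbers serve only as names. The most similar pair within a group still differed beyond counting error (chi-square per degree of freedom 3.71). Alternatives changed the scaling, filter, tool, library size, fit, covariate and libraries.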

Additional observations from a re-analysis of the deposited data

Results flagged for a closer look

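Each of 72 groups of 5 values (the share of counts, the 7 genes above the low-count filter, both ribosomal RNA genes and both ratios, in 6 groups) was searched for a library far from the rest, and 2 groups held one, where chance alone gives about 1 in 20. PS2APP neuron replicate 1 had 1.76% of its counts on the 10 mitochondrial genes, against 1.13 to 1.30% in the other 4 PS2APP neuron libraries. Non-Tg astrocyte replicate 1 had 8253 CPM of mt-Rnr2, scaled by total counts alone, against 1708 to 2419 in the other 4 non-Tg astrocyte libraries.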

How the results depend on the processing

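No paired analysis was possible because the labels give no replicate numbers. Genes called in myeloid cells (412), astrocytes (26) and neurons (1) became 939, 514 and 15 without a filter, 887, 327 and 143 in DESeq2 and 798, 295 and 5 in the fit of all libraries. With the other-cell covariate they became 4 in astrocytes and 4 in neurons. With 1 library left out they ran from 105 to 652, 8 to 125 and 1 to 11. Of the 7 tested mitochondrial genes, calls in myeloid cells (3) became 7 without a filter and 0 in the robust fit, the fit of all libraries and with the covariate. In astrocytes (4) they became 0 with the covariate, and in neurons (0) 1 in DESeq2. With 1 library left out they ran from 0 to 5 in myeloid cells, 0 to 6 in astrocytes and 0 to 0 in neurons.

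For differences between populations, DESeq2 called 382, 85 and 16 genes in place of 137 (myeloid cells minus astrocytes), 19 (myeloid cells minus neurons) and 6 (astrocytes minus neurons), and 1 library left out gave 103 to 176, 12 to 27 and 1 to 11. The mean share of counts was 6.91% in PS2APP and 3.58% in non-Tg astrocytes with all mitochondrial genes summed. With TMM scaling it was 7.00 and 3.35%. Without the 50 most abundant other genes the share was 14.5 and 9.38% in PS2APP and non-Tg myeloid cells. It was then 8.67 and 4.63% in PS2APP and non-Tg astrocytes and 1.67 and 1.38% in PS2APP and non-Tg neurons.

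With 1 library left out, the ND6 ratio ran from −0.10 to 0.24 in myeloid cells, 0.36 to 0.57 in neurons and −0.12 to 0.093 for non-Tg myeloid cells minus neurons. The ratio of ND5 and CYTB to ND1 and ND2 ran from −0.050 to 0.040, −0.024 to 0.030 and −0.014 to 0.056 in myeloid cells, astrocytes and neurons. COX1 in neurons ran from −0.017 to 0.25. Differences of the PS2APP effect ran from −0.59 to 0.10 for ND2 in myeloid cells minus astrocytes, and for ND6 from −0.53 to 0.15 in astrocytes minus neurons, −0.35 to 0.43 in myeloid cells minus astrocytes and −0.33 to 0.10 in myeloid cells minus neurons. ND6 in non-Tg myeloid cells minus astrocytes was −0.015 with RLE, −0.015 in DESeq2 and ran from −0.18 to 0.57 with 1 library left out. The causes were not tested. COX2, COX3 and ATP6, with at most 12 counts in a library, were too low to compare.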

Other observations

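The files hold 22 transfer RNA genes of the mitochondrial chromosome, which are short and were counted at low levels. Most counts fell on TrnL1, with 22696 over the 30 libraries, and on TrnE and TrnF, with 9017 and 5465. TrnL1, for leucine, lies between mt-Rnr2 and ND1, TrnF, for phenylalanine, is the first gene of the heavy-strand transcript, and TrnE, for glutamate, lies next to ND6 on the light strand. Of 16 tested in myeloid cells, 13 in astrocytes and 10 in neurons, none passed in edgeR, with 4, 7 and 3 (25.0, 53.8 and 30%) at an unadjusted p under 0.05, beside 19.3, 17.2 and 22.9% of all genes. DESeq2 called 1, 3 and 1 (6.25, 23.1 and 10.0%), beside 7.23, 2.33 and 0.89% of all genes. Positive log2 fold changes were 15 of 16, 12 of 13 and 9 of 10, beside 49.8, 50.6 and 48.1% of all genes, with medians of 0.52, 0.99 and 0.50.

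In neurons TrnE and TrnP had log2 fold changes of 0.83 ± 0.21 and 0.55 ± 0.23 (SE), without overlap between PS2APP and non-Tg libraries. Of all genes tested in neurons, 1.36% did not overlap and were higher and 1.76% were lower. TrnV had 0.93 ± 0.27, TrnF 0.47 ± 0.28 and TrnL1 0.17 ± 0.24, each with overlap. In astrocytes TrnF and TrnP did not overlap, beside 0.99% of all genes tested that did not overlap and were higher and 1.99% that were lower. TrnE had 0.56 ± 0.35 there, TrnF 1.03 ± 0.21 and TrnL1 1.05 ± 0.25. In myeloid cells TrnE, TrnF and TrnL1 had 0.44 ± 0.24, 0.77 ± 0.28 and 0.67 ± 0.25, each with overlap.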
